A study of Homo sapiens with 36 samples.

Results

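CX3CL1, TRAF1 and 8 other genes of the NF-kB pathway (NFKB1, NFKB2, RELB, NFKBIA, TNFAIP3, BIRC3, CXCL8 and IL32) were followed through 12 conditions of an ovarian cancer cell model, 10 genes of the 57820 in the count table. The set was chosen on readouts: CX3CL1 and TRAF1 were the strongest carboplatin-induced genes of the platinum-sensitive cells, and the others were listed beside them as NF-kB subunits, inhibitors and targets. The rule names no medium and was read as complete medium, so every contrast with those wt libraries is given below as a description, with no test. In that contrast the fitted log2 difference was 7.36 for CX3CL1 and 6.97 for TRAF1. They ranked first and second of 4576 genes averaging at least 50 counts per library, with every treated library above every untreated one. Just outside stood a gene listed as ENSG00000133808 at 6.73, C15orf48 at 6.45 and CCL22 at 6.39. Among all 14639 genes tested, low ones included, CX3CL1 took place 13 and TRAF1 place 19.

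NF-kB is a family of dimeric transcription factors held inactive in the cytoplasm by IkB proteins. Signals from TNF-type and interleukin receptors, and DNA damage, act through adaptors and the IkB kinases to degrade IkB or to process the NFKB2 precursor, and the freed dimers then switch on chemokines, cytokines, survival genes and their own inhibitors. In epithelial tumours the pathway is known for the cytokines it releases and for protection from cell death. CX3CL1 (fractalkine) is a membrane-bound chemokine, CXCL8 is the neutrophil chemokine interleukin 8, and IL32 is a cytokine. TRAF1 is a signalling adaptor of TNF receptors and BIRC3 (cIAP2) a ubiquitin ligase recruited with it. NFKBIA encodes IkB alpha, TNFAIP3 encodes the deubiquitinase A20, and both restrain the pathway that induces them.

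The cells were A2780 (wt), a platinum-sensitive ovarian cancer line, and its derivative A2780 cis (cis), made resistant by chronic exposure to cisplatin. A further population, cis SSP, grew out of cis cells kept without serine and glycine. The study reports that cis SSP cells regained part of their sensitivity to platinum. Each line grew in complete medium or in medium from which serine and glycine were omitted (-SG), and each medium was used without drug and with carboplatin (carbo), a platinum compound that crosslinks DNA. The labels write its dose as 6 M, a unit that cannot be meant literally. With 3 libraries per condition, RNA of 36 libraries was sequenced, and the study's legends call such triplicates technical, so the p-values measure the spread between these libraries and not between independent cultures. Every line is a bulk culture derived from A2780, and in bulk RNA fewer cells expressing a gene and less RNA per cell cannot be told apart.

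Between 13074937 and 20441582 reads per library were counted on genes. Levels are CPM, a gene's count relative to the library total after TMM adjustment, given as mean ± SD of 3 libraries. No 2 libraries of the same condition held identical counts, and pairs across conditions were not compared. Replicate 1 of cis SSP and replicate 2 of cis SSP -SG stood apart from their triplicates, with a median absolute log2 deviation over genes of 0.420 and 0.426 against at most 0.231 elsewhere. Their values leaned on gene length (slope on log2 length -0.337 and -0.349). Outside these triplicates the largest deviation was 0.157, in replicate 2 of wt -SG carbo, with a slope of -0.131. Counts of called genes and the named fitted changes in cis SSP and cis SSP -SG are therefore given with and without the 2 libraries that stood apart. Replicates 2 and 3 of cis -SG carbo had 17.9% and 14.9% of reads on no annotated feature against at most 9.31% elsewhere. The epithelial and ovarian label was weakly borne by its markers, since PAX8 reached at most 10 counts, KRT7 1 count, MUC16 3 counts and CDH1 6 counts in any library, while KRT18 reached 42.2 CPM. The 8 immune markers summed to 8.47 to 9.45 CPM in wt carbo and 12.1 to 12.9 CPM in wt -SG carbo against at most 0.881 CPM in the other 10 conditions, nearly all of it ITGAM (at most 12.4 CPM), with PTPRC at no more than 1 count and CD3E at 0 in all 36 libraries. Endothelial markers summed to at most 0.911 CPM, and the collagen gene COL3A1 was at 617 to 3903 CPM in all libraries. The 9 epithelial or ovarian markers summed to 2.12 to 2.32 CPM in wt -SG and 22.4 to 23.6 CPM in wt -SG carbo. ITGAM moved with the NF-kB genes described below. The epithelial sum rose with them under carboplatin in wt cells only. Without drug it was already 16.5 to 19.7 CPM in cis and 43.6 to 46.2 CPM in cis -SG. CX3CL1 averaged 0.102 CPM in cis and 0.257 CPM in cis -SG. The part of ITGAM and of the epithelial markers in the results below was not tested. A gene that passes the filter on low counts only through the condition where it is high has to differ, so genes were counted as tested only where each condition compared averaged at least 10 counts. The others are given by their summed counts, with no test.

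All 10 genes are protein coding and lie apart in the genome (GRCh37, exons and introns included). CX3CL1 (ENSG00000006210) spans chr16:57406389-57418956 on the plus strand and TRAF1 (ENSG00000056558) spans chr9:123664671-123691451 on the minus strand. IL32 (ENSG00000008517) is at chr16:3115298-3132193, CXCL8 (ENSG00000169429) at chr4:74606236-74609433, BIRC3 (ENSG00000023445) at chr11:102188215-102210134 and TNFAIP3 (ENSG00000118503) at chr6:138188351-138204451, all plus strand. NFKB1 (ENSG00000109320) is at chr4:103422487-103538459, NFKB2 (ENSG00000077150) at chr10:104153867-104162281, RELB (ENSG00000104856) at chr19:45504719-45541450 and NFKBIA (ENSG00000100906) at chr14:35870285-35873955, the last on the minus strand. IL32 shares exonic sequence with the small nuclear RNA pseudogene RNU1-125P on its own strand, TNFAIP3 with the opposite-strand WAKMAR2, and BIRC3 with an opposite-strand long non-coding RNA. Counting was not stated to use strand, so reads in these overlaps cannot be assigned for sure.

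NF-kB dimers bind the kappaB motif, and the upstream sequence of the genes that moved together is shown for that reason. RefSeq windows on GRCh38.p14, 250 bases upstream of a start site, were available for 8 of the 10 genes in 14 windows. The degenerate NF-kB (kappaB) consensus, 10 letters searched on both strands, occurred in 7 of the 14 windows, against 9.96% of all 35116 windows. Those 7 windows belonged to 6 of the 8 genes, and no share per gene was computed. The members were listed as NF-kB genes, so matches were likely beforehand and the comparison is a description, not a test. A match is a description of letters and not a measured binding site. The stretches that hold the matches are printed 5′ to 3′ on the gene's strand, 120 bases each, with the matches in capitals. Where matches on both strands overlap they appear as 1 run.
IL32, chr16:3065283-3065402, plus strand: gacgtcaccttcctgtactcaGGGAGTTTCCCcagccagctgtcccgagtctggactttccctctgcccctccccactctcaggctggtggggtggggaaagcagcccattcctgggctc
NFKB1, chr4:102501239-102501358, plus strand: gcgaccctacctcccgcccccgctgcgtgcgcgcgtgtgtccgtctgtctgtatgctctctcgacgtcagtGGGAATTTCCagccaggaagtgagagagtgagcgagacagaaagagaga
NFKB2, chr10:102394458-102394577, plus strand: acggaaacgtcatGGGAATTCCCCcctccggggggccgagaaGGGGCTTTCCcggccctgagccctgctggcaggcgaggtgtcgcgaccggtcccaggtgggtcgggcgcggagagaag
NFKBIA, chr14:35404750-35404869, minus strand: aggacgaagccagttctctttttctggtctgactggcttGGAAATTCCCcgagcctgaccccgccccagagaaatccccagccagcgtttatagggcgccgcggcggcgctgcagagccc
TNFAIP3, chr6:137867139-137867258, plus strand: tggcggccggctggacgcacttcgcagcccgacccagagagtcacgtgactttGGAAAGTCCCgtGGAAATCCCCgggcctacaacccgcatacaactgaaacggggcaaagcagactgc
BIRC3, chr11:102317274-102317393, plus strand: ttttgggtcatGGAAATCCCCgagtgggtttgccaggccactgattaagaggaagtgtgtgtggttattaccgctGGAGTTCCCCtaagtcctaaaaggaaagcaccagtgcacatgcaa
The stretches of IL32, NFKB1, NFKB2, NFKBIA and TNFAIP3 end at the base before the start site, and that of BIRC3 ends 91 bases before it. NFKB2 held a further window with matches that is not printed. CXCL8 and the 3 windows of TRAF1 held no match to these letters. CX3CL1 and RELB are named only.

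Carboplatin in wt cells in complete medium, the contrast that chose the set, is described first. CX3CL1 stood at 0.166, 0.165 and 0 CPM in the wt libraries and at 20.8, 17.9 and 17.9 CPM in wt carbo. TRAF1 went from 0.221, 0.110 and 0.157 CPM to 21.7, 21.9 and 19.9 CPM. Summed over triplicates these were 6 against 985 counts for CX3CL1, a ratio of 175 (80.0 to 477, exact 95% interval of counting error), and 9 against 1102 counts for TRAF1, a ratio of 130 (68.4 to 286). Both genes were near 0 in every library without drug and far above it in every library with drug. The members with a higher resting level also stood higher with carboplatin: BIRC3 at 202 ± 3.6 CPM against 8.99 ± 0.35, IL32 at 135 ± 4.2 against 7.55 ± 1.0, and NFKBIA at 206 ± 7.5 against 38.4 ± 1.0. The fitted log2 differences were 4.5 for BIRC3, 4.16 for IL32, 3.30 for TNFAIP3, 2.43 for NFKBIA, 1.71 for RELB, 1.53 for NFKB2 and 0.73 for NFKB1. CXCL8 had between 1 and 3 counts per wt carbo library and none in wt.

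**Figure D1:**
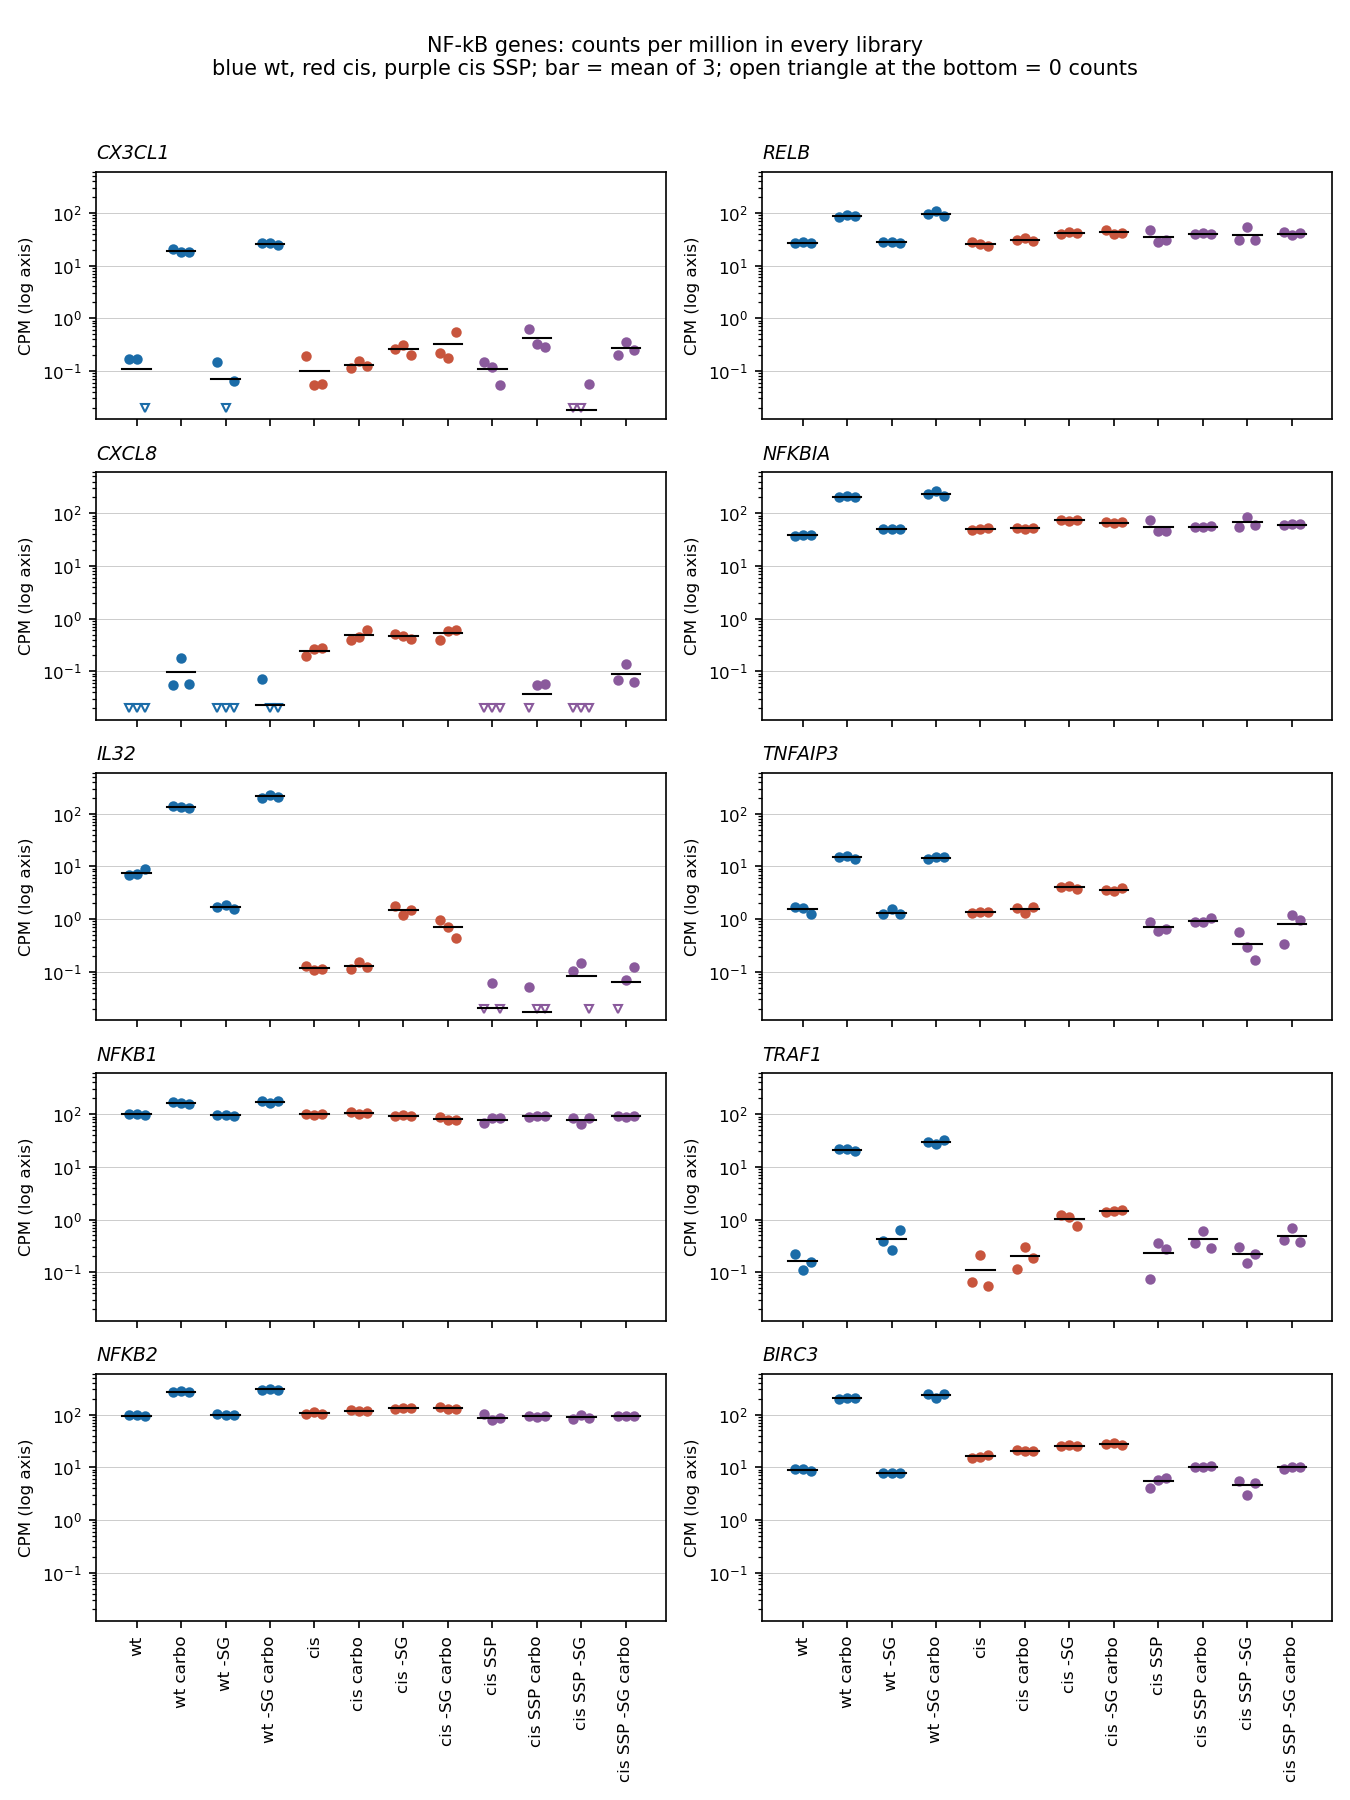
CPM of each of the 10 genes (log axis) in all 36 libraries, by condition, with wt in blue, cis in red and cis SSP in purple, a black bar at the mean of 3 libraries and an open triangle at the bottom for a library with 0 counts. CX3CL1 and TRAF1 are near 20 to 30 CPM only in wt carbo and wt -SG carbo and at most 1.5 CPM in every other library.

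The libraries without serine and glycine were not part of that contrast and carry the test of the carboplatin response in sensitive cells (edgeR's quasi-likelihood fit, p-values adjusted by Benjamini-Hochberg over all 14467 genes that passed the filter). There CX3CL1 stood at 0.148, 0 and 0.0643 CPM without drug and at 27, 26.9 and 24 CPM with carboplatin. TRAF1 stood at 0.394, 0.265 and 0.643 CPM against 29, 26.7 and 31.7 CPM. No library of either treated triplicate came near an untreated one. Both passed the filter through the treated libraries alone and are given without a test. From 4 against 1174 counts the ratio for CX3CL1 was 355 (138 to 1305, exact 95% interval of counting error), and from 23 against 1316 counts that for TRAF1 was 69.2 (45.9 to 110). Ranked as in complete medium, CX3CL1 took place 4 and TRAF1 place 22 of 4192 genes, as a description.

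The cytokine IL32 went from 1.72, 1.86 and 1.54 CPM in wt -SG to 198, 230 and 209 CPM in wt -SG carbo, a log2 rise of 6.95 ± 0.10 (adjusted p = 1.9e-10). The ubiquitin ligase BIRC3 went from 7.83, 7.74 and 7.78 CPM to 250, 208 and 249 CPM, a rise of 4.92 ± 0.10 (adjusted p = 1.1e-09). Of the inhibitors, TNFAIP3 went from 1.23, 1.54 and 1.22 CPM to 13.9, 15 and 15 CPM, or 3.45 ± 0.12 (adjusted p = 2.0e-08). For NFKBIA the libraries read 49.95, 51.3 and 49.9 CPM without drug and 228, 260 and 211 CPM with it, or 2.21 ± 0.08 (adjusted p = 1.6e-08). None of these groups overlapped, which was common: 4192 genes averaging at least 50 counts per library had every treated library above every untreated one. The subunits moved less: RELB rose by 1.80 ± 0.08, NFKB2 by 1.59 ± 0.05 and NFKB1, at 96.1, 96.0 and 90.8 against 174, 161 and 178 CPM, by 0.87 ± 0.06 (adjusted p = 1.5e-06 for NFKB1, the largest of the 3).

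In all, 7 of the 7 members tested were called higher, beside 33.1% of the 13464 genes tested called higher and 35% called lower. Of the other members, CX3CL1 and TRAF1 were too low without drug and CXCL8 was left out by the filter. The median log2 change was 2.21 over the 7 members and -0.01 over all genes tested. As a description of deprivation alone in wt cells, NFKBIA stood at 50.4 ± 0.83 CPM in wt -SG against 38.4 ± 1.0 in wt, whereas IL32 was lower at 1.71 ± 0.16 against 7.55 ± 1.0.

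The same drug gave small changes in cis cells. In complete medium CX3CL1 stood at 0.196, 0.0534 and 0.0556 CPM in cis and 0.115, 0.151 and 0.124 in cis carbo, and TRAF1 at 0.0652, 0.214 and 0.0556 against 0.115, 0.302 and 0.186 CPM. Both overlapped between groups and neither reached the filter, as also held for IL32 (2 counts in each of the 6 libraries). CXCL8, at 3 to 5 counts in cis and 6 to 10 in cis carbo, did not overlap between groups but was below the filter. BIRC3 went from 14.9, 15.8 and 17.3 CPM to 21.3, 19.9 and 20.6 CPM and rose by 0.38 ± 0.07 on the log2 scale (adjusted p = 0.00038). RELB rose by 0.28 ± 0.07 (adjusted p = 0.0040) and NFKB2 by 0.19 ± 0.04 (adjusted p = 0.00028). These were 3 of 6 members tested, beside 9.36% of all genes called higher and 11.1% lower. NFKB1 differed by 0.09, NFKBIA by 0.05 and TNFAIP3 by 0.20, none past the threshold. When all 36 libraries shared the estimate of spread, none of the 3 calls held (adjusted p = 0.096 for BIRC3, 0.22 for NFKB2 and 0.62 for RELB).

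Without serine and glycine, carboplatin left cis cells with 3 of 8 tested members lower, beside 10.6% of genes called higher and 11.9% lower. IL32 read 1.73, 1.20 and 1.47 CPM in cis -SG and 0.945, 0.707 and 0.444 CPM in cis -SG carbo, a fall of 1.06 ± 0.31 (log2, adjusted p = 0.025). NFKB1 fell by 0.18 ± 0.05 (adjusted p = 0.018) and NFKBIA by 0.12 ± 0.04 (adjusted p = 0.041). TRAF1, at 1.22, 1.10 and 0.762 CPM against 1.39, 1.47 and 1.5 CPM, did not overlap between groups but missed the threshold (adjusted p = 0.18). CX3CL1 stayed at or below 10 counts in each library. All 3 calls were lost when replicate 1, 2 or 3 of cis -SG or replicate 3 of cis -SG carbo was left out (adjusted p from 0.053 to 0.13). Without replicates 2 and 3 of cis -SG carbo, those with many reads on no feature, only replicate 1 of that condition was left. Only effect sizes are given for that setting: IL32 differed by -0.62, NFKB1 by -0.06, NFKBIA by -0.12 and RELB by 0.19.

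The difference between the responses was tested directly. Without serine and glycine the carboplatin response of wt cells exceeded that of cis cells for 7 of 7 tested members, beside 30.5% of all genes with a positive and 31% with a negative difference called. That difference was 8.03 ± 0.31 for IL32 (log2, adjusted p = 3.5e-13) and 4.83 ± 0.12 for BIRC3 (adjusted p = 8.4e-16). For the inhibitors it was 3.61 ± 0.19 (TNFAIP3) and 2.36 ± 0.09 (NFKBIA), and for the subunits 1.77 ± 0.11 (RELB), 1.58 ± 0.08 (NFKB2) and 1.07 ± 0.09 (NFKB1). Without replicates 2 and 3 of cis -SG carbo, which leaves only replicate 1 there, the 7 values ran from 7.55 for IL32 to 0.91 for NFKB1. CX3CL1 was not tested, and its ratio of 355 in wt -SG stood beside 1.25 in cis -SG (0.587 to 2.69, exact 95% interval of counting error), from 15 against 17 counts.

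**Figure D2:**
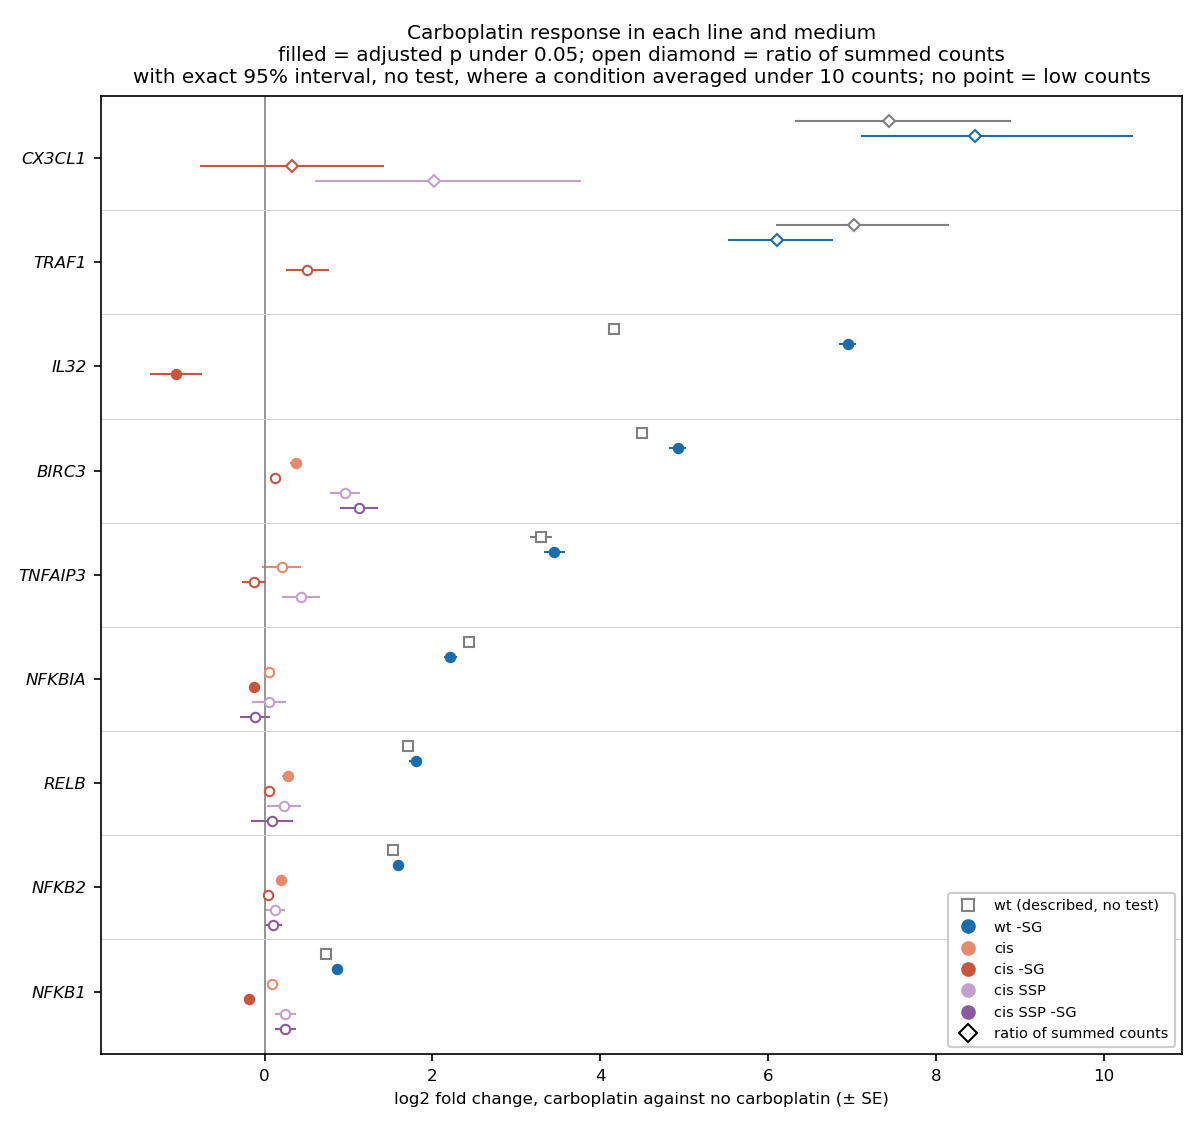
Log2 fold change with carboplatin of 9 genes in each line and medium, as circles (± SE) filled where the adjusted p was under 0.05, as grey squares for wt in complete medium without a test, and as open diamonds for ratios of summed counts with their exact 95% interval where a condition averaged under 10 counts. The wt -SG circles run from 0.87 (NFKB1) to 6.95 (IL32) and the diamond of CX3CL1 lies at 8.47, while the circles of cis and cis SSP cells lie between -1.06 and 1.13.

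In cis SSP cells carboplatin raised no member past the threshold in either medium when all libraries were used. BIRC3 came closest, with 4.03, 5.85 and 6.28 CPM in cis SSP and 10.2, 10.1 and 10.6 CPM in cis SSP carbo (log2 difference 0.96 ± 0.18, adjusted p = 0.056), and with 5.47, 3.02 and 5.10 CPM against 9.25, 10.3 and 10.2 CPM without serine and glycine (1.13 ± 0.23, adjusted p = 0.085). Its groups did not overlap in either medium. The counts were 0 of 6 members tested in complete medium, beside 1.73% of genes called higher and 0.748% lower, and 0 of 5 without serine and glycine, beside 1.09% higher and 0.288% lower. At an unadjusted p under 0.05, 1 and 1 members respectively were below the line, beside 2157 of 13376 and 1977 of 13211 genes tested. DESeq2 called 1 member in each, and no share over all genes is given for it.

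These counts turned on the libraries that stood apart. Without cis SSP replicate 1, 5 of 6 members were called higher with carboplatin: BIRC3 by 0.78 ± 0.11 (adjusted p = 2.7e-06), RELB by 0.49, NFKBIA by 0.32, NFKB2 by 0.23 and NFKB1 by 0.14 (adjusted p = 0.0039). Over all genes 22.2% were then called higher and 19.9% lower. RELB had 47.3 CPM in that replicate against 27.6 and 29.9 CPM in the other cis SSP libraries and 39.3, 41.2 and 39.0 CPM in cis SSP carbo. Without cis SSP -SG replicate 2, 4 members were called higher, BIRC3 by 0.93 ± 0.12 (adjusted p = 4.2e-06), RELB by 0.43, NFKB2 by 0.18 and NFKB1 by 0.14, beside 21.4% of genes higher and 20.6% lower. CX3CL1 read 0.147, 0.121 and 0.0546 CPM in cis SSP and 0.623, 0.329 and 0.287 CPM in cis SSP carbo, 5 against 23 counts in sum. That is a ratio of 4.06 (1.51 to 13.7, exact 95% interval of counting error), at a level far below the 17.9 to 20.8 CPM of wt carbo.

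Set against cis cells without serine and glycine, the carboplatin response of cis SSP cells was larger for 1 of 5 members tested, BIRC3 (difference 1.04 ± 0.22 log2, adjusted p = 0.034), beside 2.31% of genes called with a positive and 0.551% with a negative difference. The call was lost with total-count scaling (adjusted p = 0.062), when any 1 library of cis -SG, cis -SG carbo or cis SSP -SG carbo was left out (1.003 to 1.098, adjusted p from 0.061 to 0.12) and without replicates 2 and 3 of cis -SG carbo (1.02, adjusted p = 0.33, beside 0.147% and 0.0233% of genes). Without the cis SSP -SG library that stood apart, 4 were called: BIRC3 at 0.78, RELB at 0.35, NFKB1 at 0.30 and NFKBIA at 0.22, beside 16.9% of genes in each direction. In cis cells the carboplatin response differed between media for 1 of 6 members, NFKB1 (-0.26 ± 0.06 log2, adjusted p = 0.0045), beside 6.58% of genes called with a positive and 6.99% with a negative difference. Without those replicates 2 and 3 of cis -SG carbo it was -0.16 (adjusted p = 0.10) and no member was called, beside 4.43% and 5.82% of genes.

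Withdrawal of serine and glycine alone raised 5 of the 6 members tested in cis cells, beside 35.5% of all genes called higher and 39.4% lower. Marker sums moved in the same comparison: the 9 epithelial or ovarian markers went from 16.5 to 19.7 CPM in cis to 43.6 to 46.2 CPM in cis -SG and the 5 fibroblast markers from 3516 to 3615 CPM to 774 to 795 CPM, and their part in the result was not tested. The adaptor TRAF1 went from 0.0652, 0.214 and 0.0556 CPM in cis to 1.22, 1.10 and 0.762 CPM in cis -SG, and IL32 from 0.130, 0.107 and 0.111 to 1.73, 1.20 and 1.47 CPM. In counts that is 6 against 60 for TRAF1, a ratio of 8.90 (3.86 to 25.2), and 6 against 86 for IL32, a ratio of 12.8 (5.63 to 35.7, exact 95% intervals of counting error). Both passed the filter through the deprived libraries alone and are given without a test. TNFAIP3 went from 1.30, 1.39 and 1.33 CPM to 4.08, 4.23 and 3.66 CPM and rose by 1.62 ± 0.18 (log2, adjusted p = 8.6e-11).

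BIRC3 went from 14.9, 15.8 and 17.3 CPM to 25.4, 26.3 and 24.8 CPM, a rise of 0.73 ± 0.07 (adjusted p = 3.3e-13). RELB rose by 0.76 ± 0.06, NFKBIA by 0.59 ± 0.04 and NFKB2 by 0.37 ± 0.04, while NFKB1 differed by -0.02 (adjusted p = 0.64). The median over the 6 was 0.66 against -0.02 over all genes tested. CX3CL1, at 0.196, 0.0534 and 0.0556 CPM against 0.255, 0.313 and 0.203 CPM, did not overlap between groups but had at most 6 counts in a library. CXCL8 read 3 to 5 counts in cis and 8 to 10 in cis -SG, both below the filter.

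In cis SSP cells the same withdrawal called 0 of 5 members, beside 0.0225% of genes called higher (3 of 13348) and 0 lower. At an unadjusted p under 0.05 there were 0 members and 842 genes, and DESeq2 called 0 of the members. BIRC3 differed by -0.24 ± 0.31, so the error was wide. TNFAIP3 had 34 counts in cis SSP and 18 in cis SSP -SG, a ratio of 0.50 (0.266 to 0.910, exact 95% interval of counting error). Without both libraries that stood apart NFKBIA was called higher by 0.34 ± 0.06 (adjusted p = 1.8e-05) and the others were not, beside 19.4% of genes higher and 17.3% lower. BIRC3 then differed by -0.19. A test of deprivation in cis SSP against deprivation in cis was not run.

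Between lines without carboplatin, cis cells stood above wt cells in medium lacking serine and glycine for 5 of 7 members tested, beside 40% of genes called higher and 39.6% lower. BIRC3, at 25.5 ± 0.72 CPM in cis -SG against 7.79 ± 0.05 in wt -SG, was higher by 1.76 ± 0.07 (log2, adjusted p = 7.2e-15). TNFAIP3 was higher by 1.62 ± 0.18, RELB by 0.64, NFKBIA by 0.58 and NFKB2 by 0.44. TRAF1 had 60 against 23 counts, a ratio of 2.44 (1.49 to 4.14, exact 95% interval of counting error). The epithelial or ovarian markers summed to 43.6 to 46.2 CPM in cis -SG against 2.12 to 2.32 CPM in wt -SG and the fibroblast markers to 774 to 795 against 1464 to 1496 CPM, and their part was not tested. IL32 (-0.18, adjusted p = 0.45) and NFKB1 (0.03) did not pass. In complete medium, as a description, IL32 stood at 0.130, 0.107 and 0.111 CPM in cis against 6.81, 7.10 and 8.74 CPM in wt, BIRC3 at 16 ± 1.2 against 8.99 ± 0.35 CPM, and NFKB1 at 99.1 ± 1.8 against 98.5 ± 1.7 CPM.

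Cis SSP cells stood below cis cells for 2 of 6 members in complete medium, beside 14.3% of genes called higher and 12.5% lower. BIRC3 read 4.03, 5.85 and 6.28 CPM against 14.9, 15.8 and 17.3 CPM and was lower (log2 -1.57 ± 0.19, adjusted p = 0.0022), and TNFAIP3 was at -0.94 ± 0.21 (adjusted p = 0.018). The TNFAIP3 call was lost with DESeq2 (adjusted p = 0.080) and when any 1 of the other 5 libraries was left out (adjusted p from 0.060 to 0.084). Without cis SSP replicate 1 all 6 tested members were called, RELB higher (0.18, adjusted p = 0.040) and the others lower, among them NFKBIA, which changed sign from 0.11 to -0.14 (adjusted p = 0.018), beside 32.2% of genes higher and 33.4% lower. BIRC3 was then at -1.39 and TNFAIP3 at -1.07.

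In medium lacking serine and glycine cis SSP cells were below cis cells for 2 of 5 members tested, beside 21.8% of genes called higher and 20.5% lower. BIRC3 read 5.47, 3.02 and 5.10 CPM in cis SSP -SG against 25.4, 26.3 and 24.8 CPM in cis -SG (log2 -2.54 ± 0.23, adjusted p = 0.00046), and NFKB2 was at -0.64 ± 0.10 (adjusted p = 0.0028). The next 3 members were too low in cis SSP -SG for a test. TNFAIP3 read 0.557, 0.294 and 0.166 CPM against 4.08, 4.23 and 3.66 CPM, or 18 against 233 counts, a ratio of 0.0879 (0.0512 to 0.142, exact 95% interval of counting error). IL32 was at 0 to 2 counts against 23 to 34 counts per library, a ratio of 0.0529 (0.0141 to 0.140), and TRAF1 had 12 against 60 counts, a ratio of 0.227 (0.111 to 0.427). These 3 did not overlap between groups, but they passed the filter through cis -SG alone. The share of all genes without overlap was not computed. Without cis SSP -SG replicate 2 all 5 tested members were called lower, beside 39% of genes higher and 36.8% lower. BIRC3 was then at -2.32 and NFKB2 at -0.70. The epithelial or ovarian markers summed to 12.6 to 19.9 CPM in cis SSP -SG against 43.6 to 46.2 CPM in cis -SG and the fibroblast markers to 2494 to 3074 against 774 to 795 CPM, and their part was not tested. Whether the difference between the lines depended on the medium was not tested.

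**Figure D3:**
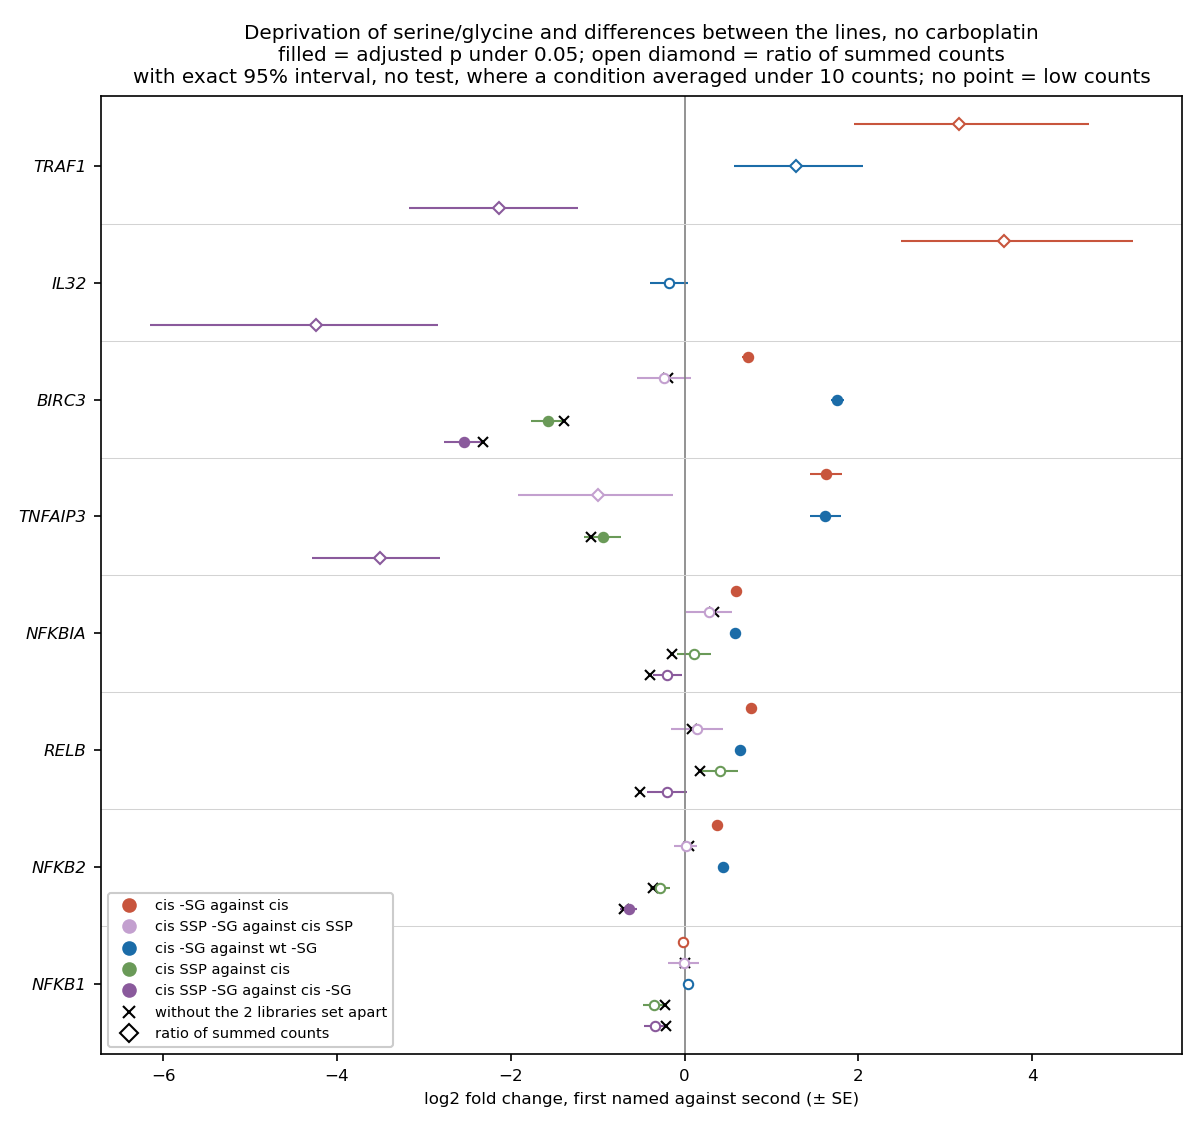
Log2 fold change of 8 genes for serine and glycine withdrawal in cis and cis SSP cells and for 3 comparisons between lines, all without carboplatin, as circles (± SE) filled where the adjusted p was under 0.05, with black crosses for the same value without the 2 libraries that stood apart and open diamonds for ratios of summed counts with their exact 95% interval where a condition averaged under 10 counts. BIRC3 is higher in cis -SG than in cis (0.73) and lower in cis SSP -SG than in cis -SG (-2.54).

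Ranked over the 12 conditions, CX3CL1 was highest in wt -SG carbo (26 ± 1.7 CPM) and next in wt carbo (18.9 ± 1.7 CPM), whose libraries did not overlap. The following condition, cis SSP carbo, was at 0.413 ± 0.18 CPM, and from there down to cis -SG each condition overlapped the next. TRAF1 had the same first and second condition (29.1 ± 2.5 and 21.2 ± 1.1 CPM), then cis -SG carbo (1.45 ± 0.06 CPM) and cis -SG (1.03 ± 0.24 CPM), which overlapped neither of its neighbours. From cis SSP -SG carbo (0.493 ± 0.18 CPM) downward each condition overlapped the next for TRAF1. CXCL8 ordered otherwise: its highest mean was 0.530 ± 0.12 CPM in cis -SG carbo, all wt, wt -SG, cis SSP and cis SSP -SG libraries were at 0, and it had 103 counts over 36 libraries. A count of 0 allows up to 3 counts per library, so CXCL8 was not measurable at this depth in those conditions.

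Over the 12 condition means on the log2(CPM + 1) scale, the genes most like CX3CL1 among 13371 with a mean of at least 1 CPM were IL23A (Pearson r = 0.9975), C15orf48 (0.9966), RRAD (0.9965), ZSCAN4 (0.9965) and KRT19 (0.9959). For TRAF1 they were ICAM1 (0.9938), the gene named CPM (0.9931), SDC4 (0.9919), SYNPO (0.9910) and TRIM54 (0.9905). TRAF1 was place 30 for CX3CL1 and CX3CL1 place 12 for TRAF1. Of the other members NFKBIA was the closest to both (0.9609 and 0.9757), and TNFAIP3 the least close to CX3CL1 (0.9001). The 12 points share scaling, and for both genes the wt carboplatin conditions stood far above the other 10. They include wt and wt carbo, whose contrast chose CX3CL1 and TRAF1. The likeness of these genes to each other was thus partly fixed by that choice and is no test.

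The wider pathway was taken as 84 further NF-kB genes by role, of which 80 matched a row of the table. With carboplatin in wt -SG cells 44 of 56 tested were called higher and 4 lower (median 0.96), beside 33.1% of all genes higher and 35% lower. By role as listed, secreted targets were 6 of 6 tested higher, receptors 7 of 7 and ligands 3 of 3. Inhibitors or negative regulators were 9 of 10, other targets 5 of 6, kinases 7 of 10 and adaptors 5 of 12. All of these stand beside that same share. The inhibitor role is a label of the list and holds BCL3, NFKBIZ and NFKBID, whose action on NF-kB was not measured. The cytokine TNF had no count in wt -SG and 2.21 ± 0.71 CPM in wt -SG carbo, at least 13.6-fold higher against a floor of 3 counts per library. CSF2, a myeloid growth factor, had 1 against 128 counts, a ratio of 155 (27.3 to 6161, exact 95% interval of counting error), and IL23A, a cytokine subunit, rose by 6.66 ± 0.17 to 67.4 ± 7.8 CPM (adjusted p = 3.0e-09). The genes that fell most were the kinase adaptors TAB1 (-0.93 ± 0.06) and TAB2 (-0.35 ± 0.07) and the adaptor TRAF5 (-0.64 ± 0.07).

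In cis cells carboplatin called 17 of 53 of these genes higher and 0 lower, beside 9.36% of all genes higher and 11.1% lower, led by the cytokine LIF (1.05 ± 0.07), the TNF-family ligand TNFSF9 (0.95 ± 0.05) and the NF-kB-inducing kinase MAP3K14 (0.76 ± 0.06). In cis -SG cells 12 of 56 were higher and 7 lower, beside 10.6% and 11.9% of all genes. The largest were the protease PLAU at 0.47 and, downward, GADD45B at -0.36, and the PLAU call was lost without replicates 2 and 3 of cis -SG carbo (0.30, adjusted p = 0.32), when 13 were higher and 4 lower beside 7.98% and 7.35%.

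In cis SSP cells 7 of 53 were higher and 0 lower, beside 1.73% and 0.748% of all genes, and without replicate 1 of cis SSP 30 were higher and 3 lower, beside 22.2% and 19.9%. LIF rose there by 2.40 ± 0.12 (2.32 without that replicate), PLAU by 1.35 ± 0.16 (1.5) and TNFSF9 by 1.17 ± 0.18 (1.39). In cis SSP -SG cells 4 of 53 were higher and 0 lower, beside 1.09% and 0.288%, and without replicate 2 of cis SSP -SG 31 were higher and 5 lower, beside 21.4% and 20.6%. LIF rose by 2.60 ± 0.13 (2.50 without that replicate), PLAU by 1.43 ± 0.19 (1.65) and CSF1, the macrophage growth factor, by 1.26 ± 0.11 (1.20).

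The response of wt -SG cells exceeded that of cis -SG cells for 38 of 53 genes and was below it for 4, beside 30.5% and 31% of all genes. That of cis SSP -SG cells exceeded it for 8 of 53, beside 2.31%, with LIF at 2.28 ± 0.14 (adjusted p = 4.3e-05). Without the cis SSP -SG library that stood apart the latter count was 22 with 6 below, beside 16.9% each way, and LIF was at 2.13. With replicate 1 as the only cis -SG carbo library LIF was at 2.27.

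**Figure D4:**
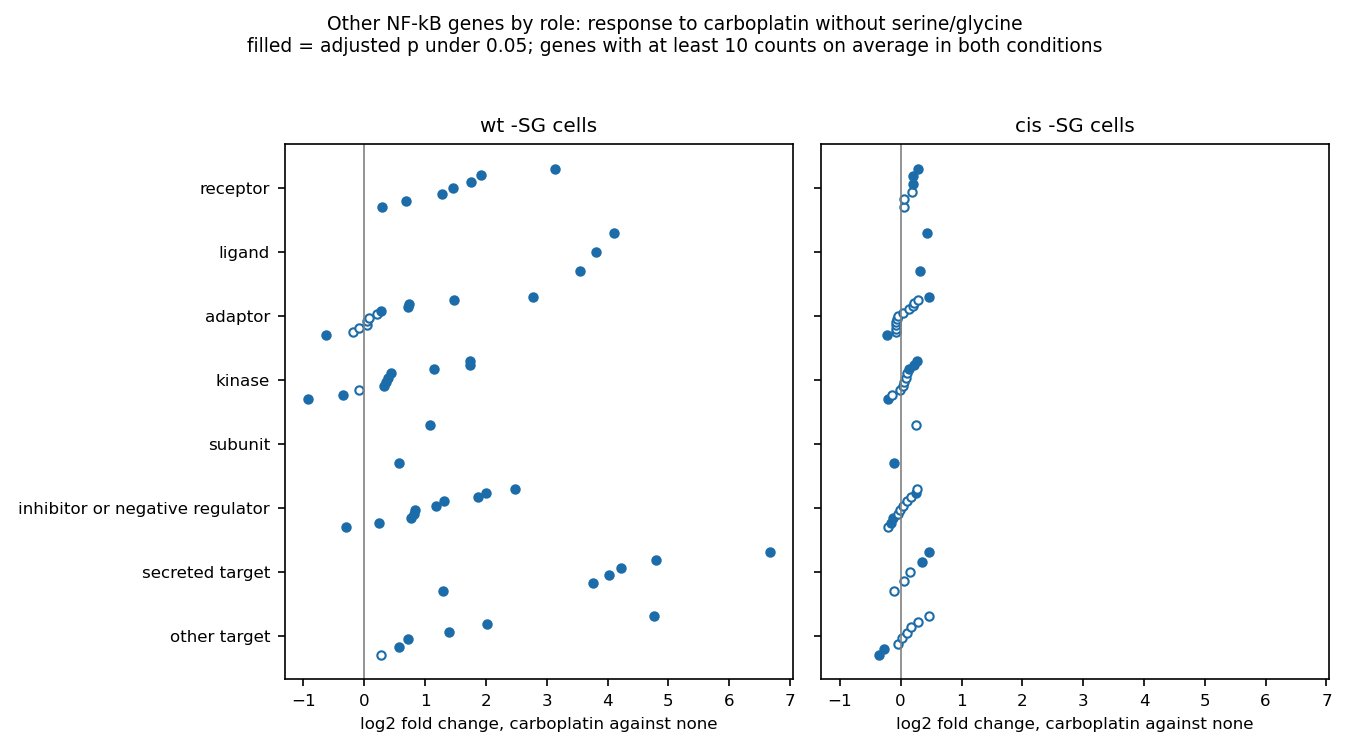
Log2 fold change with carboplatin of the further NF-kB genes with at least 10 counts on average in both conditions, by role, in wt -SG cells (left, 56 genes) and cis -SG cells (right, 56 genes), filled where the adjusted p was under 0.05. In wt -SG cells secreted targets reach 6.66 (IL23A), while in cis -SG cells the called values lie between -0.36 and 0.47.

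Withdrawal of serine and glycine called 30 of 53 of these genes higher and 12 lower in cis cells, beside 35.5% of all genes higher and 39.4% lower. In cis SSP cells it called 0 of 53, beside 0.0225% of all genes, and without the libraries that stood apart 14 of 52 higher and 11 lower, beside 19.4% and 17.3%. In cis cells RBCK1, a subunit of the linear ubiquitin ligase, rose by 1.90 ± 0.03 and LIF by 1.55 ± 0.06. The adhesion molecule ICAM1 had 13 counts in cis and 49 in cis -SG, a ratio of 3.36 (1.79 to 6.74, exact 95% interval of counting error). The cyclooxygenase PTGS2 fell by 1.17 on the log2 scale, TRAF2 by 0.82 and TRADD by 0.77. Between lines without serine and glycine, 29 of 53 were higher and 19 lower in cis than in wt cells, beside 40% and 39.6% of all genes. The ligand CD70 was at 167 ± 2.1 against 11.4 ± 1.2 CPM, the receptor IL1R1 at 21.6 ± 1.3 against 1.65 ± 0.39 CPM and the receptor CD40 at 0.0343 ± 0.03 against 4.46 ± 0.23 CPM.

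Cis SSP differed from cis cells in 7 of 52 genes upward and 11 downward in complete medium, beside 14.3% and 12.5% of all genes, and without replicate 1 of cis SSP in 10 upward and 25 downward, beside 32.2% and 33.4%. Without serine and glycine 6 of 53 were higher and 23 lower, beside 21.8% and 20.5%, and without replicate 2 of cis SSP -SG 13 were higher and 34 lower, beside 39% and 36.8%. In that medium LIF read 7.67 ± 0.98 against 46.4 ± 1.5 CPM (log2 -2.66 ± 0.14, and -2.55 without that replicate), and PTGS2 had 2 against 115 counts.

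The partners of these genes were described by level alone. RELA, the transactivating subunit, had condition means from 87.7 to 144 CPM and the kinases CHUK and IKBKB from 45.5 to 104 and 28.5 to 64.2 CPM. ADAM10 and ADAM17, the proteases that shed CX3CL1, ranged from 141 to 217 and from 34.7 to 98.9 CPM. CX3CR1, the receptor of CX3CL1, had at most 15 counts in any library, CXCR1 had none in all 36, and CXCR2, the other receptor of CXCL8, was highest in wt -SG carbo at 1.13 CPM.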

How the data were processed

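RNA-seq libraries of A2780 cells were made by the authors with a total RNA kit, aligned with STAR to GRCh37.p13 and counted on exons with HTSeq; how strand and reads with several hits were handled is not given in the sources used here. The deposited values are counts, whole reads per gene and library, not normalized. The 3 rows that name no gene were left out (4.21% to 17.9% of reads on no feature). Gene symbols came from a GENCODE annotation lifted to GRCh37 (55538 of 57820 identifiers), and 4 of the 84 further NF-kB genes (IKBKG, IKBKE, CCL5 and SOD2) found no row and were not analysed here.

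Each comparison was fitted on its own libraries with edgeR 4.0.16 in R 4.3.3 (TMM, filterByExpr, robust quasi-likelihood test), the p-values were adjusted by Benjamini-Hochberg over all genes tested, and a gene was called at an adjusted p under 0.05. Genes were counted, and the shares over all genes computed, only where each condition compared averaged at least 10 counts, a limit set after seeing the data. The SE is the log2 fold change over the square root of F. Interactions used 4 conditions. Contrasts with wt or wt carbo in complete medium chose the set and were not tested. Where a triplicate had few counts, ratios of summed counts carry exact 95% intervals, which cover counting error only. The script was tested on simulated data. The members, gene lists and tests were chosen with earlier results of these data known. Named genes are the 10 members, the 3 called genes with the largest change per direction of the further list, the 5 most alike in pattern, and the partners by level. Alternatives were DESeq2 1.42.0, its size factors, total counts, no filter, at least 10 counts in every library, 1 fit over 36 libraries, leaving out each library, and leaving out the libraries that stood apart or had many reads on no feature. Figures were drawn with matplotlib 3.10.9.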

Additional observations from a re-analysis of the deposited data

Results flagged for a closer look

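Each result here was singled out because a test of the difference between responses was past the threshold (log2 scale, edgeR's quasi-likelihood test, adjusted over all genes). The response to carboplatin without serine and glycine was larger in wt than in cis cells for IL32 (8.03), BIRC3 (4.83), TNFAIP3 (3.61), NFKBIA (2.36), RELB (1.77), NFKB2 (1.58) and NFKB1 (1.07). CX3CL1 and TRAF1 averaged under 10 counts in a condition and were not tested. BIRC3 responded more in cis SSP than in cis cells without serine and glycine, by 1.04. That call was lost with total counts and when any 1 library of cis -SG, cis -SG carbo or cis SSP -SG carbo was left out. NFKB1 responded less in cis -SG than in cis cells, by -0.26. That call was lost with 1 fit over 36 libraries. With replicate 1 as the only cis -SG carbo library the difference was -0.16. What lies behind these differences was not tested.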

How the results depend on the processing

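Of 36 calls of a member among 79 tested values, 27 had the same direction and side of the threshold under every alternative run; all 7 of carboplatin in wt -SG cells and all 7 of the difference between wt -SG and cis -SG responses are among them. The cause of the changes below was not tested. No paired analysis was possible because the labels give no replicate numbers. Counts of members called changed as follows. The shares over all genes are in the text above for the settings without the libraries that stood apart. For the other alternatives no share is given, so those counts show dependence on processing only and say nothing about the members against all genes. With 1 fit over 36 libraries they were 0 (carboplatin in cis), 1 (cis -SG), 2 (cis SSP), 2 (cis SSP -SG), 5 (cis SSP against cis), 2 (response of cis SSP minus cis) and 0 (medium by carboplatin in cis). With DESeq2 they were 1 for carboplatin in cis -SG, cis SSP and cis SSP -SG cells and for cis SSP against cis, with no filter 1 for carboplatin in cis SSP and in cis SSP -SG cells, and with total counts 0 (response of cis SSP minus cis). Without the libraries that stood apart they were 5 (carboplatin in cis SSP), 4 (cis SSP -SG), 1 (deprivation of cis SSP), 6 (cis SSP against cis), 5 (cis SSP -SG against cis -SG) and 4 (response of cis SSP minus cis). Without replicates 2 and 3 of cis -SG carbo only replicate 1 of that condition is left, so no count of calls is given. Leaving out each library gave 0 to 3 (carboplatin in cis -SG), 0 to 5 (cis SSP, 5 without replicate 1 of cis SSP), 0 to 4 (cis SSP -SG, 4 without replicate 2 of cis SSP -SG), 1 to 6 (cis SSP against cis), 2 to 5 (cis SSP -SG against cis -SG), 0 to 4 (response of cis SSP minus cis) and 1 to 5 (medium by carboplatin, 5 without replicate 1 of cis -SG carbo).

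Values that changed sign had not been called. NFKBIA became -0.0018 (carboplatin in cis SSP, total counts), 0.12 (cis SSP -SG) and -0.14 (cis SSP against cis, then called), both without the libraries that stood apart, and -0.0043 and -0.0042 (response of cis SSP minus cis, total counts and at least 10 counts). NFKB1 became 0.011 and 0.0082 (deprivation of cis, total counts and at least 10 counts), 0.0054, 0.00051, 0.0019 and 0.0059 (deprivation of cis SSP, DESeq2, its size factors, no filter, and without the libraries that stood apart) and -0.0092 (cis -SG against wt -SG, 1 fit). NFKB2 became -0.051 (deprivation of cis SSP, total counts) and RELB -0.090 (response of cis SSP minus cis, without replicates 2 and 3 of cis -SG carbo). Leaving out each library spanned 0 in carboplatin in cis -SG (NFKB2 -0.0076 to 0.058, RELB -0.022 to 0.11), in cis SSP (NFKBIA -0.082 to 0.32), in cis SSP -SG (NFKBIA -0.24 to 0.12, RELB -0.063 to 0.43), deprivation of cis SSP (NFKB2 -0.057 to 0.11, RELB -0.16 to 0.39, NFKB1 -0.12 to 0.12), cis SSP against cis (NFKBIA -0.14 to 0.22) and the response of cis SSP minus cis (NFKBIA -0.051 to 0.22, RELB -0.050 to 0.35). The counts of the further NF-kB genes without the libraries that stood apart are in the text above and were chosen after seeing the data.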
